A study of Mus musculus with 8 samples.

Results

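The CC and CXC chemokine genes of macrophages were followed in RNA sequencing of RAW264.7 cells, a mouse macrophage-like cell line, cultured with PBS or with recombinant FSTL1 (rFSTL1). The group held 10 of the 22013 genes in the count table. It comprised the CC ligand genes Ccl3, Ccl4, Ccl2, Ccl7, Ccl6, Ccl9 and Ccl22, the CXC ligand genes Cxcl2 and Cxcl16, and the receptor gene Ccr1. The genes were taken by symbol, and they were chosen from results of this same contrast. Their fold changes and p-values are therefore given as a description, beside the share of all genes that passed the same criterion, and they are not independent evidence of a direction.

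Total RNA was collected from 4 libraries of cells given PBS and 4 libraries of cells given rFSTL1 at 100 ng/mL for 24 h. FSTL1 is a secreted glycoprotein, and the comparison addresses how macrophage transcripts differ after direct exposure to it. All 8 libraries came from 1 cell line, and no gene was deleted in either group. The labels do not say whether the libraries of a group came from separate cultures, so p-values measure the spread between these libraries, which may be technical. Total counts ranged from 15183118 to 20234477 under PBS and from 15062023 to 19260960 under rFSTL1, and 3 counts corresponded to between 0.148 and 0.200 CPM, the count scaled to the total of its library. Of 10 macrophage marker genes, 9 had enough counts to be tested, and their summed level was 4699 to 4850 CPM under PBS and 4761 to 4928 CPM under rFSTL1. Mertk was the marker with too few counts. Markers of lymphocytes and of neutrophils summed to at most 7 and 2 counts in any library, and those of endothelial cells to 35 to 55. Fibroblast markers summed to 23 and 15 counts in PBS replicates 1 and 2 and to 0 to 2 in the other libraries. On the first principal component, which held 28.8% of the variance, rFSTL1 replicates 3 and 4 stood apart from the other libraries, and without them the same 2 genes of the group were called.

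Chemokines are small secreted proteins that guide leukocytes along a gradient, and their names follow the spacing of conserved cysteines near the start of the mature protein. They act on receptors coupled to heterotrimeric G proteins, and several ligands share a receptor. Macrophages both release and respond to them. Ccl3 and Ccl4 are inflammatory ligands, and Ccl3 binds Ccr1. Ccl6 and Ccl9 are rodent ligands of Ccr1, whereas Ccl2 and Ccl7 draw monocytes through Ccr2, Ccl22 draws T cells through Ccr4 and Cxcl2 draws neutrophils through Cxcr2.

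In the GENCODE M21 annotation, Ccl5, Ccl9, Ccl6, Ccl3 and Ccl4 lie in this order on chromosome 11, and Ccl2 and Ccl7 are adjacent to each other on the same chromosome. The start sites of Ccl3 and Ccl4 are 13.2 kb apart, and that of Ccl9 is 70.7 kb from that of Ccl3. Promoter windows of 250 bases before the start were found for 6 of the 10 genes in RefSeq (GRCm38.p6). The windows of Ccl3, Ccl9 and Cxcl2 are shown because Ccl3 and Ccl9, which share a cluster, had different fold changes, and because Cxcl2 had the largest fold change of the tested genes in the group. They lie at chr11:83649379-83649628 (minus strand), chr11:83578637-83578886 (minus strand) and chr5:90903649-90903898 (plus strand), each written 5′ to 3′ on the strand of its gene. Capitals mark matches, on either strand, to an NF-κB motif (3 G, any 5 bases, 2 C) and to an AP-1 motif (TGANTCA).
Ccl3: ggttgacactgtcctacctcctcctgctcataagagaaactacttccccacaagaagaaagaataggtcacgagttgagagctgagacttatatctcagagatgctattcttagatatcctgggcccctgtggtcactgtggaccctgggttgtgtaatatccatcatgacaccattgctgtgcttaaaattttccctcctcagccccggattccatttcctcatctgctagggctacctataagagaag
Ccl9: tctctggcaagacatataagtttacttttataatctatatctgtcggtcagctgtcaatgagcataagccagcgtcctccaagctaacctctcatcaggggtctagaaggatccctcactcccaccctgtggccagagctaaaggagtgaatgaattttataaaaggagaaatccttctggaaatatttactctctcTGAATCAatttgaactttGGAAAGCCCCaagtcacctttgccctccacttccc
Cxcl2: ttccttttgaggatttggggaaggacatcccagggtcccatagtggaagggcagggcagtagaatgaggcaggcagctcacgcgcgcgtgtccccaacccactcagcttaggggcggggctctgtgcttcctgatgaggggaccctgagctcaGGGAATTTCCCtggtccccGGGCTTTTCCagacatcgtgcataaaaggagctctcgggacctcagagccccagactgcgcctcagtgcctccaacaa
The Ccl3 window held no match to either motif. The Ccl9 window held 1 NF-κB match, which began 35 bases before the start, and 1 AP-1 match, which began 53 bases before it. In the Cxcl2 window there were 3 NF-κB matches and no AP-1 match, and 2 of the 3 overlap each other, at 97 and 96 bases before the start. Of the other windows, that of Ccl22 held 2 NF-κB matches, that of Ccr1 held 1 and that of Ccl6 held none. Over all 32851 promoter windows of this length, 45.8% held the NF-κB motif and 6.75% the AP-1 motif. The motifs of the hypoxia-inducible factors (ACGTG, in 16.6% of all windows) and of C/EBP (TTGCNNAA, in 9.56%), searched on both strands, were in none of the 6 windows. A match is a stretch of letters and was not tested as a binding site.

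Of the 10 genes, 7 passed the filter on low counts and were tested among 10748 genes, namely Ccl3, Ccl4, Ccl9, Ccl2, Ccl6, Cxcl2 and Cxcl16. Ccl7, Ccl22 and Ccr1 did not pass and are described by their counts. With an adjusted p-value under 0.05 by the edgeR quasi-likelihood test, 2 of the 7 were higher under rFSTL1, Ccl3 and Ccl4, and none was lower. Over all genes tested, 0.344% passed this threshold in either direction and 0.326% were higher. In 3 of the 7 genes, Ccl3, Ccl4 and Cxcl2, every rFSTL1 library lay above every PBS library, a pattern shown by 4.63% of all genes tested (8.16% for either direction). The fold change was positive in 6 of the 7 and negative in Ccl9, with a median of 0.28 on the log2 scale against 0.01 for all genes tested. The rule that named the genes used this contrast, so nothing is read from these shares.

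**Figure D1:**
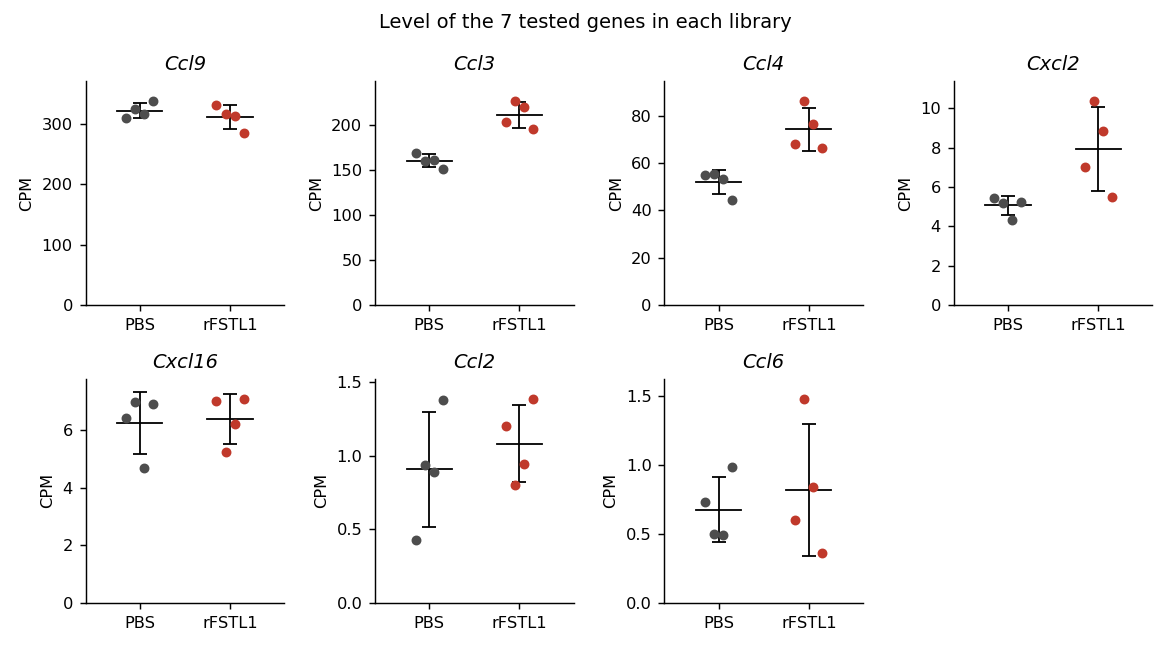
Level in CPM (vertical axes, each from 0) of the 7 tested genes in each of the 4 PBS and 4 rFSTL1 libraries; points are libraries, and bars give the mean and SD. The rFSTL1 points of Ccl3 and Ccl4 lie clear of the PBS points, those of Cxcl2 lie above them by a narrow margin, and the groups overlap for Ccl9, Cxcl16, Ccl2 and Ccl6.

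Ccl3 (ENSMUSG00000000982) was measured at 168.7, 160.7, 161.2 and 151.5 CPM in PBS replicates 1 to 4 and at 203.2, 226.3, 220.0 and 196.0 CPM in the rFSTL1 replicates. The groups did not overlap, and the lowest rFSTL1 library was replicate 4. The mean level was 161 ± 7.03 CPM under PBS and 211 ± 14.2 CPM under rFSTL1 (SD, n = 4). This is a fold change of 1.32, or 0.40 on the log2 scale (standard error 0.05, 95% interval 0.29 to 0.51), with an edgeR adjusted p of 0.00363. Without PBS replicates 1 and 2, a choice made after seeing the data, it was 0.43 on the log2 scale with an edgeR adjusted p of 0.0614. Between 2306 and 4203 counts stood behind each value, and counting alone would give a coefficient of variation of 1.75%. The PBS libraries varied by 4.38% and the rFSTL1 libraries by 6.70%.

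Ccl4 (ENSMUSG00000018930), the neighbour of Ccl3 and also an inflammatory ligand, was measured at 54.9, 55.5, 53.2 and 44.2 CPM under PBS. Under rFSTL1 it was measured at 67.9, 86.0, 76.4 and 66.5 CPM. No library of one group reached the range of the other, and the lowest value of each group was in replicate 4. The mean rose from 51.9 ± 5.24 to 74.2 ± 8.98 CPM (SD, n = 4), a fold change of 1.43 and a log2 fold change of 0.51 (standard error 0.08, 95% interval 0.33 to 0.69, edgeR adjusted p = 0.0151). Without PBS replicate 3, PBS replicate 4 or rFSTL1 replicate 3, the edgeR adjusted p of Ccl4 was 0.0522, 0.0656 and 0.0570, above the threshold, with fold changes of 0.52, 0.44 and 0.50 on the log2 scale.

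Ccl9 (ENSMUSG00000019122), a Ccr1 ligand that macrophages and osteoclast precursors release, had the highest level of the group in CPM. It was measured at 309.0, 323.9, 316.5 and 336.7 CPM under PBS and at 330.3, 316.1, 313.1 and 284.4 CPM under rFSTL1. The groups overlapped, with both the second highest and the lowest of the 8 values in the rFSTL1 group. The mean was 322 ± 11.8 CPM under PBS and 311 ± 19.2 CPM under rFSTL1 (SD, n = 4). The log2 fold change was -0.05 (standard error 0.05, 95% interval -0.15 to 0.05, edgeR adjusted p = 0.651), and it ran from -0.08 without rFSTL1 replicate 1 to -0.0076 without rFSTL1 replicate 4. The interval ends below the lower bound of the interval of Ccl3, 0.29. Of the 50-base words in its annotated transcripts, 59 of 2996 (1.97%) also occur in other genes, 463 in number.

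The same contrast within each library does not depend on how libraries were scaled. For each Ccl9 count there were 0.500 ± 0.0396 counts of Ccl3 under PBS and 0.681 ± 0.0451 under rFSTL1 (SD, n = 4). The ratio ran from 0.450 to 0.546 under PBS and from 0.615 to 0.716 under rFSTL1, with no overlap. The ratio of Ccl4 to Ccl9 was 0.162 ± 0.0209 under PBS and 0.239 ± 0.0274 under rFSTL1 and did not overlap either. In contrast, the ratio of Ccl4 to Ccl3 was 0.323 ± 0.0225 under PBS and 0.350 ± 0.0205 under rFSTL1, and its ranges overlapped. A ratio within a library shows that 2 genes changed unequally, not that one of them was constant.

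**Figure D2:**
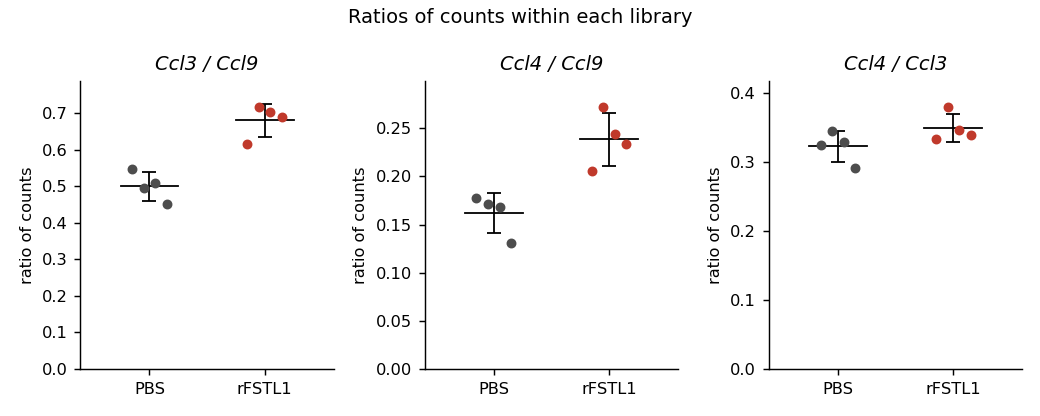
Ratios of counts (vertical axes, each from 0) of Ccl3 to Ccl9, Ccl4 to Ccl9 and Ccl4 to Ccl3 within each of the 4 PBS and 4 rFSTL1 libraries; points are libraries, and bars give the mean and SD. Both ratios to Ccl9 lie higher in every rFSTL1 library than in any PBS library, and the ratio of Ccl4 to Ccl3 overlaps between the groups.

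Ccl9, Ccl3 and Ccl4 together made up 96.3% ± 0.417 of all chemokine ligand counts under PBS and 95.9% ± 0.284 under rFSTL1 (SD, n = 4). The summed level of the ligands was 548 to 563 CPM in the PBS libraries and 569 to 657 CPM in the rFSTL1 libraries. Of this sum, Ccl9 contributed 58.0% ± 2.08 under PBS and 50.04% ± 2.04 under rFSTL1. The share of Ccl3 was 28.9% ± 1.31 under PBS and 34.0% ± 0.988 under rFSTL1, and that of Ccl4 was 9.36% ± 0.923 and 11.9% ± 0.916. These shares add up to a whole, so the lower share of Ccl9 goes with the higher shares of Ccl3 and Ccl4.

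Per kilobase of the longest GENCODE M21 transcript, the order of the levels differed from the order in CPM. Under PBS, Ccl3 stood at 210 ± 9.18 CPM per kb, Ccl9 at 107 ± 3.92 and Ccl4 at 78.7 ± 7.94 (SD, n = 4). Under rFSTL1 the corresponding levels were 276 ± 18.5, 103 ± 6.40 and 112 ± 13.6 CPM per kb, and Ccl4 and Ccl9 then differed by less than the SD of Ccl4, though by more than that of Ccl9. The other 4 tested genes were far lower under PBS, with Cxcl2 at 2.45 ± 0.240, Cxcl16 at 2.32 ± 0.396, Ccl2 at 0.829 ± 0.356 and Ccl6 at 0.470 ± 0.162 CPM per kb. Cxcl2 and Cxcl16 did not differ beyond their spread under PBS, and under rFSTL1 they were at 3.84 ± 1.02 and 2.37 ± 0.320 CPM per kb. Cxcl2 and Ccl2 have shorter transcripts, on which their levels under PBS would be 4.57 and 1.12 CPM per kb. The lengths come from an annotation that may differ from the one behind the counts.

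Ccl2 (ENSMUSG00000035385), the main monocyte attractant of the family, was low in these cells. It had 7, 17, 18 and 21 counts in the PBS libraries and 18, 13, 18 and 27 in the rFSTL1 libraries, and the groups overlapped. The mean level was 0.909 ± 0.390 CPM under PBS and 1.08 ± 0.262 CPM under rFSTL1 (SD, n = 4), with a log2 fold change of 0.27 (standard error 0.33, 95% interval -0.44 to 0.97, edgeR adjusted p = 0.726). The log2 fold change was 0.04 without PBS replicate 1, 0.50 without PBS replicate 4 and -0.04 without PBS replicates 1 and 2. Counting alone gives a coefficient of variation of 24.0% for Ccl2, and its interval includes the log2 fold changes of Ccl3 and Ccl4.

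Ccl6 (ENSMUSG00000018927), a Ccr1 ligand and the next gene to Ccl9, had 12, 9, 10 and 15 counts under PBS and 9, 24, 16 and 7 under rFSTL1. The highest and the lowest values were both in the rFSTL1 group. Its log2 fold change was 0.28 (standard error 0.42, 95% interval -0.61 to 1.17, edgeR adjusted p = 0.771), and without rFSTL1 replicate 2 it was -0.15. The interval includes the log2 fold change of Ccl3, so a change of that size could not be told from none in Ccl6 at this depth.

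Cxcl2 (ENSMUSG00000058427), which attracts neutrophils, was measured at 5.47, 5.20, 4.34 and 5.26 CPM under PBS and at 7.01, 10.3, 8.84 and 5.49 CPM under rFSTL1. All rFSTL1 values lay above all PBS values, but rFSTL1 replicate 4 was close to PBS replicate 1, at 5.49 against 5.47 CPM. The mean was 5.07 ± 0.496 CPM under PBS and 7.92 ± 2.12 CPM under rFSTL1 (SD, n = 4). The fold change was 1.56, or 0.65 on the log2 scale (standard error 0.17, 95% interval 0.28 to 1.02), and it did not pass the threshold (edgeR adjusted p = 0.118). DESeq2 gave an adjusted p of 0.0345 and limma voom with sample quality weights one of 0.0249, and without rFSTL1 replicate 4 the edgeR adjusted p was 0.0231. The rFSTL1 libraries varied by 26.7%, against 9.79% in the PBS libraries and 9.42% from counting. In 50-base words of the annotated transcripts, Cxcl2 shares 126 of 2159 (5.84%) with its paralog Cxcl3, which had no count in any library.

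Cxcl16 (ENSMUSG00000018920), a ligand made as a membrane protein that binds Cxcr6, had 6.44, 6.97, 4.69 and 6.90 CPM under PBS and 7.01, 5.23, 6.23 and 7.08 CPM under rFSTL1. The groups overlapped, with the lowest value in PBS replicate 3 and the highest in rFSTL1 replicate 4. The mean was 6.25 ± 1.07 CPM under PBS and 6.39 ± 0.863 CPM under rFSTL1 (SD, n = 4), with a log2 fold change of 0.04 (standard error 0.15, 95% interval -0.28 to 0.36, edgeR adjusted p = 0.917). Its sign changed when single libraries were left out, for example to -0.08 without PBS replicate 3. Of its 50-base words, 16.9% are shared with Zmynd15 on the opposite strand, which had 1 to 12 counts per library. Whether the counting used strand is not given in the sources used here, so reads from the 2 genes may not be told apart in that stretch.

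The receptor gene Ccr1 (ENSMUSG00000025804) had 8, 6, 12 and 9 counts in the PBS libraries and 2, 5, 7 and 3 in the rFSTL1 libraries. Of the 4 rFSTL1 libraries, 3 lay below every PBS library, but the groups overlapped. The summed counts were 35 under PBS and 17 under rFSTL1. When all genes with a count were fitted, the estimate was -1.03 on the log2 scale (standard error 0.57, edgeR adjusted p = 0.447). The transcript of the receptor shared by Ccl3, Ccl6 and Ccl9 was near the detection limit, and a difference was not shown at this depth. In bulk RNA, fewer cells with a transcript and less of it per cell cannot be told apart.

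Ccl22 (ENSMUSG00000031779) had 0, 3, 0 and 2 counts under PBS and 0, 2, 2 and 2 under rFSTL1, and Ccl7 (ENSMUSG00000035373) had 2, 3, 0 and 0 under PBS and 1, 0, 0 and 0 under rFSTL1. No library exceeded 3 counts of either gene, so no fold change is given. The 5 PBS counts of Ccl7 were in replicates 1 and 2, the libraries that also held the fibroblast marker counts. The part of these reads in the Ccl7 counts was not tested. Without these libraries Ccl4, too, was above the threshold, with a log2 fold change of 0.59 and an edgeR adjusted p of 0.0694, and 6 genes were called in all.

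**Figure D3:**
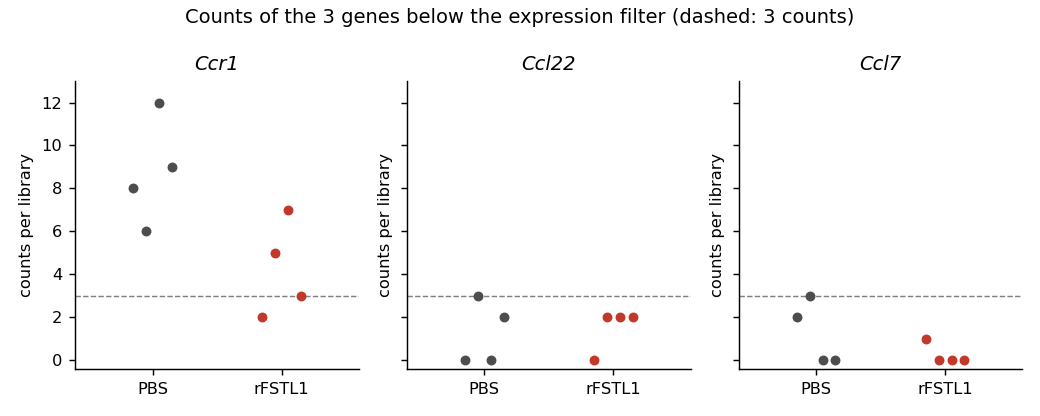
Counts per library (vertical axis) of Ccr1, Ccl22 and Ccl7 in the 4 PBS and 4 rFSTL1 libraries; points are libraries and the dashed line marks 3 counts. The Ccr1 counts run from 2 to 12 and overlap between the groups, and no Ccl22 or Ccl7 count lies above the line.

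Most other ligand genes had few or no counts. Of 28 other chemokine ligand genes in the table, 19 had no count in any library, which allows a level of up to 0.148 to 0.200 CPM per library, and 5 more had at most 4 counts in any library. The 4 that were tested were Ccl5, Ccl25, Cxcl10 and Cxcl14. None was called by edgeR or limma voom, and none had an unadjusted edgeR p under 0.05. DESeq2 gave no adjusted p for these 4 genes and so could not call them. Ccl5, a T cell attractant next to Ccl9 on chromosome 11, was at 3.53 ± 0.414 CPM under PBS and 4.44 ± 1.13 CPM under rFSTL1 (log2 fold change 0.33, standard error 0.19). Ccl25, at 1.68 ± 0.506 CPM under PBS and 2.19 ± 0.559 CPM under rFSTL1, differed by 0.40 on the log2 scale (standard error 0.26). Cxcl10, an interferon-induced ligand of Cxcr3, was at 1.35 ± 0.260 and 1.09 ± 0.351 CPM, a log2 difference of -0.30 (standard error 0.28). These estimates moved with single libraries, to 0.16 for Ccl5 and -0.54 for Cxcl10 without rFSTL1 replicate 2, and to 0.24 for Ccl25 without PBS replicate 4. The interval of Ccl5, -0.08 to 0.73, includes the fold changes of Ccl3 and Ccl4.

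Among 22 other receptor genes, 7 were tested, and edgeR and limma voom called none, with 1 unadjusted edgeR p under 0.05, against 15.9% of all genes tested. DESeq2 gave an adjusted p for 2 of the 7, Cxcr4 and Cx3cr1, and called neither. Cx3cr1, the fractalkine receptor, was the most abundant at 275 ± 7.67 CPM under PBS and 276 ± 13.8 CPM under rFSTL1 (SD, n = 4), with a log2 fold change of 0.00 (95% interval -0.09 to 0.10). For Cxcr4 and Cxcr3 the log2 difference was -0.18 (standard error 0.13) and -0.29 (standard error 0.17), with overlapping groups. Without rFSTL1 replicate 1 Cxcr3 was at -0.17 and without rFSTL1 replicate 4 at -0.47, and Cxcr4 was at -0.11 without PBS replicate 1 and -0.27 without PBS replicate 3. Several receptors of the ligands described above were scarce. Ccr2, the receptor of Ccl2 and Ccl7, was at 2.99 ± 0.422 CPM under PBS and 2.03 ± 0.294 CPM under rFSTL1, with a log2 fold change of -0.54 (standard error 0.19, edgeR adjusted p = 0.210). Ccr4 had 4 counts in all PBS libraries and 0 in all rFSTL1 libraries, Cxcr2 had 6 and 0, and Cxcr6 had 6 and 10. Ccr2, Ccr4, Cxcr2 and Cxcr6 were named here for the ligands they bind, after their values had been seen. The fold change was positive in 3 of the 7 tested receptors and negative in 4. Ccrl2 was the 1 receptor with every rFSTL1 library above every PBS library, a pattern shown by 4.63% of all genes tested. Ccrl2 and Cxcr5 differed by 0.44 and 0.47 on the log2 scale (standard errors 0.23 and 0.28), with edgeR adjusted p-values of 0.367 and 0.421. Both were also named after their values had been seen.

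**Figure D4:**
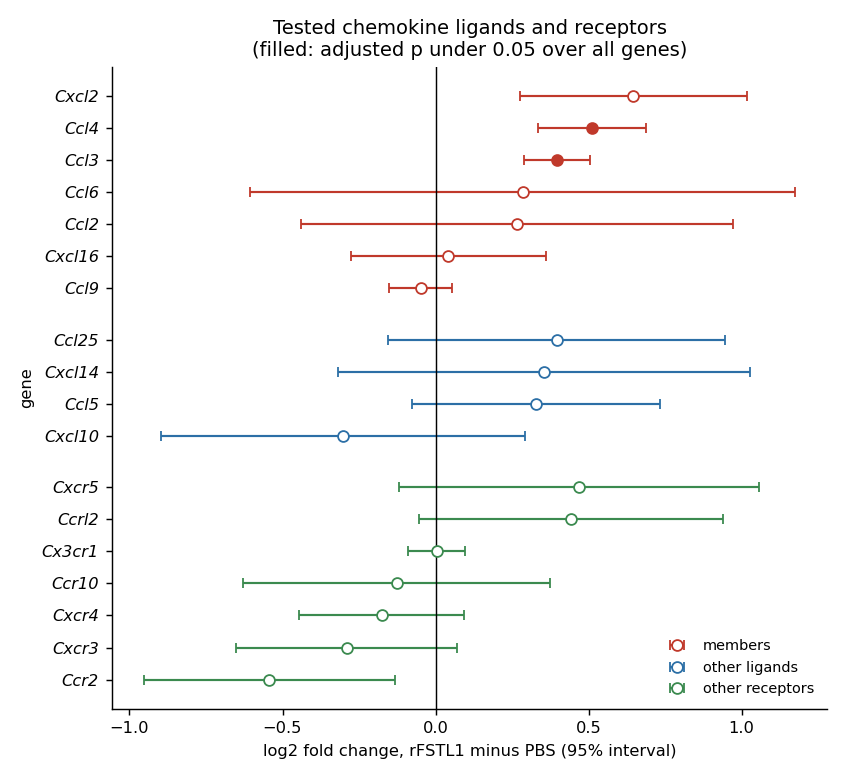
Log2 fold change, rFSTL1 minus PBS, with its 95% interval (horizontal axis) for the 7 tested members, 4 other ligands and 7 other receptors; filled points had an adjusted p under 0.05 over all genes tested. Ccl4 and Ccl3, at 0.51 and 0.40, are the filled points, and Ccl9 and Cx3cr1 have the narrowest intervals around 0.

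Of 25 genes of signalling below chemokine receptors, 22 were tested and none was called by edgeR, DESeq2 or limma voom. The most abundant were Cdc42, Gnai2 and Gnb1, a small GTPase and 2 G protein subunits, which differed by -0.07, 0.07 and 0.07 on the log2 scale (standard errors 0.05, 0.05 and 0.04). Without rFSTL1 replicate 4 these values were -0.02, 0.03 and 0.05. Unadjusted edgeR p-values under 0.05 were found for 2 of the 22, against 15.9% of all genes tested. They were the arrestins Arrb1 and Arrb2, which switch off activated receptors. Their log2 fold changes were 0.13 and 0.14, and both genes were named after their values had been seen.

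All 25 genes listed as regulators of chemokine transcription and mRNA decay were tested, and 1 was called. Junb, a subunit of AP-1, was at 74.3, 76.3, 81.5 and 74.4 CPM under PBS and at 95.9, 92.1, 95.8 and 107 CPM under rFSTL1, without overlap. Its log2 fold change was 0.35 (standard error 0.05, edgeR adjusted p = 0.00895). Without PBS replicate 2 or PBS replicate 4, Junb had edgeR adjusted p-values of 0.0537 and 0.0748, and without PBS replicates 1 and 2 one of 0.259, with fold changes of 0.35, 0.33 and 0.32 on the log2 scale. The fold change was positive in 22 of the 25 genes and unadjusted edgeR p-values were under 0.05 in 9, where 52% of all genes tested had a positive fold change and 15.9% such a p. The list had a median log2 fold change of 0.12 against 0.01 for all genes tested. It was chosen with earlier results of these data known, so nothing is read from these values. The most abundant regulators were Hnrnpd, which binds AU-rich mRNA, Zfp36l2, which destabilises such mRNA, and Spi1, the PU.1 factor of the macrophage lineage. They differed by -0.08, 0.01 and 0.13 on the log2 scale (standard errors 0.06, 0.05 and 0.06). Without rFSTL1 replicate 4, Hnrnpd was at -0.03 and Spi1 at 0.07, and without rFSTL1 replicate 2 Hnrnpd was at -0.15.

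Across the 8 libraries, the genes outside the group whose log2(CPM + 1) followed Ccl3 most closely were Sdc3, Stc2 and Cdkn2d, with Pearson r of 0.98, 0.97 and 0.96. Within the group, r with Ccl3 was 0.97 for Ccl4, 0.89 for Cxcl2 and -0.32 for Ccl9. All libraries of a group share its treatment, so r was also taken on the deviations from the group means. It was then 0.86 for Sdc3, 0.88 for Stc2, 0.67 for Cdkn2d, 0.92 for Ccl4, 0.79 for Cxcl2 and 0.06 for Ccl9. For the other members it was 0.57 for Ccl6, -0.56 for Cxcl16 and -0.89 for Ccl2, of which Ccl2 and Ccl6 had at most 27 counts in a library. These values describe 8 points that share libraries and depth. Sdc3, Stc2 and Cdkn2d were picked for their r over these same libraries, which includes the deviations. Their r on the deviations is therefore partly set by that choice. Sdc3 encodes a syndecan, Stc2 a secreted glycoprotein and Cdkn2d an inhibitor of cyclin-dependent kinases. Their log2 fold changes were 0.56, 0.30 and 0.21, with edgeR adjusted p-values of 0.00676, 0.0542 and 0.127. Stc2 passed the threshold in 9 of 17 alternatives, DESeq2 and limma voom among them, and Sdc3 in 16 of 17, the exception being the fit without PBS replicates 1 and 2 (edgeR adjusted p = 0.0694).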

How the data were processed

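RNA was sequenced from 8 libraries of RAW264.7 cells, and each was placed in its group, with its replicate number, by its title and treatment label. The authors deposited estimated counts (expected counts) for each gene, without normalization. The submitters' processing notes name Bowtie2 2.2.8, HISAT2, StringTie 1.3.1 and DESeq2, and the genome build, the annotation and the use of strand are not given in the sources used here. Of the nonzero values, 13.0% were not whole, and all were rounded. Of the 10 members, Cxcl16 was the one with values that were not whole (4 values).

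Genes were kept by filterByExpr (minimum count 10), scaled by TMM and compared with edgeR 4.0.16 by glmQLFit and glmQLFTest (R 4.3.3), adjusting p (Benjamini-Hochberg) over all genes tested, with a threshold of 0.05. Intervals are 95% intervals of the log2 fold change. The floor of 3 counts and the counting variation cover counting error only, since PCR reads are not independent molecules. The test was checked on simulated data. These were drawn from the means and spread of each gene in these libraries, without other differences between libraries of a group. The check does not cover such differences. Libraries of the same group differed by more than sampling noise in every pair (chi-square per degree of freedom at least 3.03).

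The members and gene lists were chosen with earlier results of these data known. The genes named are all members, from each other list those called and the 3 of highest mean CPM, and the 3 genes most correlated with Ccl3. A few receptors, the arrestins and the genes of shared sequence were named outside this rule, after their values were seen. Alternatives were DESeq2 1.42.0, limma 3.58.1 voom with sample quality weights, other scalings, filters and thresholds, a replicate block and leaving out libraries. Gene lengths, neighbours and shared 50-base words came from GENCODE M21 and promoter windows from RefSeq. Cxcl11 was not analysed here.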

Additional observations from a re-analysis of the deposited data

Results flagged for a closer look

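Values far from the rest of their group were looked for in 46 groups of 4 libraries, and 2 were found, where chance gives about 1 in 20, or 2.3. Ccl5 in PBS replicate 3 was at 2.91 CPM, whereas the rest of the PBS group was at 3.68 to 3.76 CPM. Gnai2 in PBS replicate 4 was at 444 CPM, above the 428 to 429 CPM of the others. No member value was far from its group by this measure.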

How the results depend on the processing

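Of 117 recalculated fold changes of the members, 115 had an adjusted p, and of these 100 kept their direction and their side of the threshold, 7 changed sign, 5 lost the call and 3 gained it. DESeq2 gave no adjusted p for the other 2, Ccl2 and Ccl6. DESeq2 and limma voom with sample quality weights called 3 members, adding Cxcl2, and every other planned scaling, filter or threshold called 2. Leaving out 1 library gave 1 to 3 members, and Ccl3 was called in each of these fits, with an edgeR adjusted p of at most 0.0238. With PBS replicates 1 and 2 left out, chosen after seeing the data, 0 members were called. Fits with fewer libraries have fewer degrees of freedom. The whole table was also sensitive to the test, with 197 genes called by DESeq2 (136 higher) and 454 by limma voom (244 higher), 127 when all genes with a count were tested (101 higher), 133 at an adjusted p under 0.1 (111 higher), 56 with upper-quartile factors and 11 to 99 without 1 library.

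The 7 changes of sign were in genes near 0 or with few counts. Leaving out 1 library moved Cxcl16 from -0.082 to 0.12, with -0.082 without PBS replicate 3, -0.0094 without rFSTL1 replicate 1 and -0.015 without rFSTL1 replicate 4. Ccl2 ran from 0.04 to 0.50 in these fits. Leaving out 1 library moved Ccl6 from -0.15 to 0.55, with -0.15 without rFSTL1 replicate 2. Ccl2 was at -0.042 without PBS replicates 1 and 2. Without rFSTL1 replicates 3 and 4, also chosen after seeing the data, Ccl9 was at 0.0073 and Cxcl16 at -0.026, and 2 members were called. At a minimum count of 30, Ccl2 and Ccl6 were not tested. The regulators called numbered 1 as reported, 2 by DESeq2, 3 by limma voom, 2 with all genes with a count, 2 at an adjusted p under 0.1, and 0 to 2 without 1 library. The other 3 lists had 0 calls with each test, scaling, filter, threshold and single library left out, although DESeq2 gave no adjusted p for the 4 ligands and for 5 of the 7 receptors. Of 16 further named genes, 10 kept their sign in every alternative and 6 (Cdc42, Cx3cr1, Gnai2, Hnrnpd, Spi1 and Zfp36l2) did not. The cause of these changes was not tested.

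Replicate numbers are shared by the groups in the labels, but same-numbered libraries did not deviate together (correlations of -0.09, 0.08, -0.01 and 0.00). With the replicate block, 41 genes, 2 members and 2 regulators were called. Depth limits Ccr1, Ccl7 and Ccl22, and for Ccl2 and Ccl6 the intervals span changes in both directions.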
